A study of Homo sapiens with 36 samples.

Results

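Insulin-resistant medium was compared with normal medium in insulin-stimulated HepG2-IGF1R-KO cells, which make up 18 of the 36 RNA-seq libraries of the series. The libraries were chosen by the medium and treatment in their labels: 9 came from cells in insulin-resistant medium and 9 from cells in normal medium. HepG2 is a hepatoma line of hepatocyte character, and all groups, controls included, carry a knockout of IGF1R, the receptor of insulin-like growth factor 1; no unedited cells were analysed here. Cells were kept in DMEM with 10% fetal bovine serum, and both groups were stimulated for 18 h with human insulin at 3 nM. Before that, cells of the insulin-resistant group had spent 72 h with 1 nM human insulin, 20 mM glucose and palmitic, linoleic and oleic acids at 0.5 mM. The labels do not say whether this medium was removed before stimulation, or whether the line is 1 clone. The other 18 libraries, untreated cells in either medium, entered the model and serve to ask whether the medium acted differently with and without insulin.

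Insulin acts on hepatocytes through its receptor, the IRS adaptors and the kinases PI3K and AKT. The pathway represses FOXO1, a driver of gluconeogenic genes and of IGFBP1, and activates SREBP-1c, mTORC1 and protein synthesis. Fatty acids and high glucose are widely used to make cultured liver cells less sensitive to insulin, and palmitate is known to engage NF-kB signalling and stress of the endoplasmic reticulum (ER).

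Levels are CPM (counts scaled to a common library size) after TMM, an edgeR factor for library composition, unless stated otherwise. Differences are log2 fold changes, insulin-resistant minus normal medium, with their standard error (SE). A gene is called higher or lower where edgeR's quasi-likelihood test gave a Benjamini-Hochberg adjusted p under 0.05 over 17983 genes. The libraries held 30.6M to 111.9M counts in normal medium (median 66.9M) and 60.3M to 73.3M in insulin-resistant medium (median 64.4M). The labels call the 9 libraries of a group biological replicates without naming separate cultures, so that p-values measure the spread between these libraries, which may be technical. Libraries often resembled one another within the triplets 1 to 3, 4 to 6 and 7 to 9, and the tests treat all 9 as independent. With each triplet summed to 1 sample, 295 of the 2154 genes called higher and 602 of the 4733 called lower were called again in the same direction.

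The libraries did not hold the same kinds of RNA. Stromal markers such as collagens, which mark mesenchymal cells and not hepatocytes, were nearly absent from normal-medium replicates 4 to 6. The median over 25 stromal genes, as CPM of the library total, was 0.0449 to 0.229 there, with 7 to 10 of the 25 at 0, and 392 to 876 in the other 6 normal-medium libraries. It was 547 to 590 in insulin-resistant replicates 1 to 3 and 1097 to 1274 in replicates 4 to 9. COL1A1, a collagen chain, was at 0.742 to 1.60 CPM in normal-medium replicates 4 to 6, at 9993 to 22920 in the other 6 and at 10130 to 32710 in insulin-resistant medium. FN1, which encodes fibronectin, was at 33200 to 42160 CPM in insulin-resistant replicates 4 to 9 and at most 17110 CPM in the other 12 libraries. None of the 25 stromal markers was called higher or lower by edgeR with all libraries, although their median log2 fold change was 0.69. The median over 25 hepatocyte identity genes was 298 to 357 CPM of the library total in normal-medium replicates 4 to 6, 115 to 241 in the other 6 and 110 to 132 in the 9 insulin-resistant libraries, and none of the 25 was at 0 in any library. In bulk RNA, fewer cells of a type and less RNA per cell cannot be told apart.

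**Figure D1:**
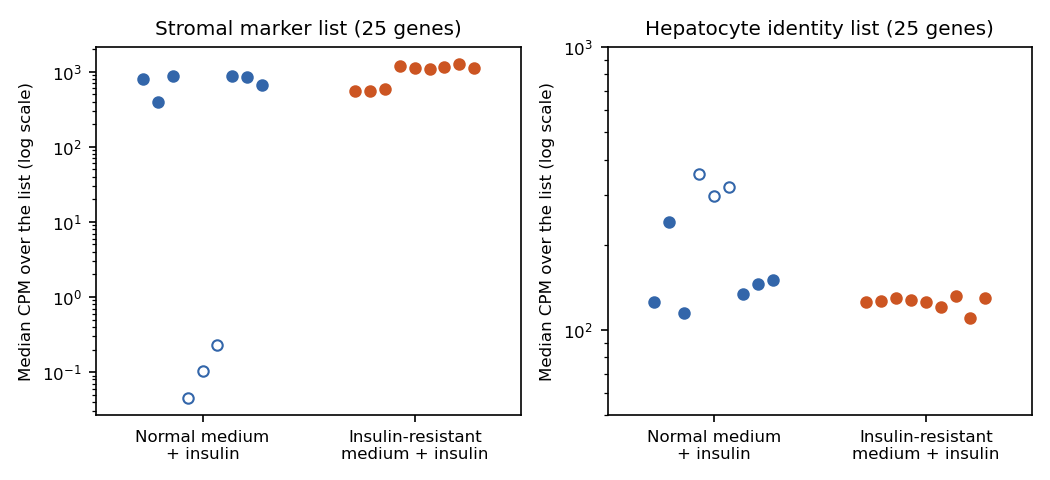
Median level of the stromal markers and of the hepatocyte identity genes in each of the 18 libraries, as CPM of the library total on a log axis. Each point is 1 library and open points are normal-medium replicates 4 to 6, which lie at 0.0449 to 0.229 for the stromal list and at 298 to 357, above the 9 insulin-resistant libraries, for the hepatocyte list.

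Results are therefore given with all libraries and without normal-medium replicates 4 to 6, which leaves both groups with stromal transcripts but with unequal FN1. Replicates 1 to 3 of both groups, in which FN1 was at most 17110 CPM, and replicates 7 to 9 were also compared on their own.

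With all libraries, 2154 of 17983 genes were higher in insulin-resistant medium (12.0%) and 4733 were lower (26.3%). Without normal-medium replicates 4 to 6, 2322 of 18328 were higher (12.7%) and 2539 lower (13.9%). Both fits called 1674 of the same genes higher (9.31%) and 2450 lower (13.6%), and 0 in opposite directions. Replicates 1 to 3 alone and 7 to 9 alone joined them in the same direction for 599 (3.33%) and 1050 (5.84%). A change of at least 2-fold was reached by 485 of the genes called higher and 535 of those called lower, and by 639 and 263 without those replicates. All 9 insulin-resistant libraries lay above all 9 normal-medium libraries for 363 genes (2.02%) and below them for 1833 (10.2%). Genes named below for a large change or a small adjusted p were chosen on these same libraries, which favours groups without overlap. The share of higher calls among all calls depended on the scaling. It was 31.3% with default TMM, 43.2% with TMM averaged over reference libraries (2997 higher, 3936 lower), 44.8% with DESeq2 size factors (3118 and 3846) and 92.1% when scaled to the hepatocyte identity genes (7550 and 645), which put the median of all genes at 0.51 on the log2 scale. List values given below for that last scaling stand beside these, 7550 of 17983 genes higher and 645 lower. Summed triplets gave 328 higher (1.6%) and 616 lower (3.01%). Within the 22 April batch (5 normal-medium and 3 insulin-resistant libraries) 476 were higher and 629 lower, and within the 11 April batch (2 and 6) 960 and 1930. The 24 May batch held no stimulated insulin-resistant library. Leaving out any 1 of 12 libraries gave 3268 to 3477 higher calls: untreated normal-medium replicates 7, 8 and 9, stimulated insulin-resistant replicates 5, 6, 7 and 9 and untreated insulin-resistant replicates 1, 3, 7, 8 and 9. Without stimulated normal-medium replicate 6, 3145 genes were lower, the fewest for any 1 library left out. Many other libraries, untreated ones included, also moved both counts when left out. Without untreated normal-medium replicate 4, 3069 genes were higher and 3656 lower, but without untreated normal-medium replicate 2, 2050 and 4690. The shares of 12.0% and 26.3% given beside the lists below therefore belong to this scaling and set of libraries.

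Genes of inflammation and NF-kB signalling were higher in insulin-resistant medium. NF-kB is a transcription factor that inhibitor proteins hold in the cytoplasm; once free, it induces chemokines, adhesion molecules and its own inhibitors. Of 21 genes tested from a list of 26, 12 higher and 1 lower, against 12.0% higher and 26.3% lower among all genes, and 12 and 1 without normal-medium replicates 4 to 6. The median of the list was 0.56 and 0.43 in these fits, beside -0.01 and 0.01 over all genes tested. When scaled to hepatocyte genes it was 1.01, beside 0.51 over all genes. For 9 of the 12 genes the groups did not overlap (2.02% of all genes in this direction), and 9 were higher with summed triplets.

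Among the secreted signals, CXCL8, the neutrophil chemokine interleukin-8, stood at 74.2, 90.2 and 97.3 CPM in insulin-resistant medium and 15.1, 22.3 and 49.0 CPM in normal medium (lowest, median and highest library). All insulin-resistant libraries lay above all normal-medium ones, and the 3 highest normal values, 30.0 to 49.0 CPM, were those of replicates 4 to 6. The log2 fold change was 1.66 ± 0.21 (edgeR adjusted p = 9.82e-08), and 2.12 without those replicates. CXCL2 and CXCL5, related chemokines, rose with 1.68 ± 0.25 and 3.22 ± 0.47. TNF, a cytokine that itself activates NF-kB, rose with 3.88 ± 0.38 from low levels, 0 to 0.0619 CPM in normal and 0.321 to 0.745 CPM in insulin-resistant medium. CXCL1, CXCL3, CCL2, CCL20 and IL6, other cytokines of the list, did not pass the test, with log2 fold changes of -0.34, -0.93, -0.16, -0.12 and -0.71. CCL2 and IL6 spread widely within normal medium, over 0 to 20.6 CPM and 0 to 6.75 CPM.

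Of the feedback inhibitors of NF-kB, TNFAIP3, which encodes the ubiquitin-editing protein A20, was at 94.7, 109.7 and 119.7 CPM in insulin-resistant medium and 16.3, 25.3 and 37.2 CPM in normal medium. The groups did not overlap, and the log2 fold change was 2.07 ± 0.17 (edgeR adjusted p = 4.35e-11). NFKBIA, which encodes the inhibitor IkB-alpha, rose with 1.30 ± 0.13, from a median of 24.0 to 58.8 CPM. BIRC3, an inhibitor of apoptosis in the TNF receptor complex, was at 7.68, 8.59 and 9.44 CPM in insulin-resistant medium and 0.888, 1.41 and 2.13 CPM in normal medium, a log2 fold change of 2.45 ± 0.19. The NF-kB subunits moved less: RELB rose with 0.50 ± 0.12 and NFKB2 with 0.32 ± 0.10, NFKB1 fell by 0.30 ± 0.05, and RELA was at 0.03 (not called).

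Of surface and effector proteins, ICAM1, which binds leukocyte integrins, was at 219.7, 249.7 and 279.7 CPM in insulin-resistant medium and 49.8, 64.8 and 110.1 CPM in normal medium. The groups did not overlap, and the log2 fold change was 1.68 ± 0.16 (edgeR adjusted p = 1.33e-09). UBD, which encodes the ubiquitin-like modifier FAT10, stood at 168, 194 and 224 CPM in insulin-resistant medium and 8.25, 12.8 and 25.3 CPM in normal medium, with 3.67 ± 0.22 (edgeR adjusted p = 4.24e-14). CXCL8, TNFAIP3, NFKBIA, BIRC3, ICAM1 and UBD were also called higher in replicates 1 to 3 alone, with log2 fold changes of 1.92, 2.06, 1.497, 2.82, 1.95 and 4.20. In replicates 7 to 9 alone they were called higher with 2.31, 2.50, 1.31, 2.49, 2.16 and 3.95.

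The promoters of 4 of the called genes are shown because they hold matches to the NF-kB consensus, searched by that name on both strands in windows from 250 bases before to 50 bases after the start site. Sequences are from RefSeq on GRCh38.p14, printed 5′ to 3′ on the strand of the gene, and capitals mark the match. The windows are chr14:35404700-35404999 (minus strand), chr6:137867009-137867308 (plus strand), chr11:102317234-102317533 (plus strand) and chr6:29559683-29559982 (minus strand).
NFKBIA: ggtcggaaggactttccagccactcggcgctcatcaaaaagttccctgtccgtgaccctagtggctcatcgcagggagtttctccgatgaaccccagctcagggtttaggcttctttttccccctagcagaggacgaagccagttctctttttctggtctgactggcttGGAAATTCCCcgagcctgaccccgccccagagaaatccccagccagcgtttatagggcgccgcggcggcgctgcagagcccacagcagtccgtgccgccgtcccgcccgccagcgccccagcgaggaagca
TNFAIP3: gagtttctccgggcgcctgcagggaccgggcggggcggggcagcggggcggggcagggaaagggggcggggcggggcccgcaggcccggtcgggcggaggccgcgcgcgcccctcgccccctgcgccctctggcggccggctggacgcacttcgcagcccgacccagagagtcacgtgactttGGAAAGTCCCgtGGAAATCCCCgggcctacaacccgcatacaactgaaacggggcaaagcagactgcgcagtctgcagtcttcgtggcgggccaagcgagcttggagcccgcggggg
BIRC3: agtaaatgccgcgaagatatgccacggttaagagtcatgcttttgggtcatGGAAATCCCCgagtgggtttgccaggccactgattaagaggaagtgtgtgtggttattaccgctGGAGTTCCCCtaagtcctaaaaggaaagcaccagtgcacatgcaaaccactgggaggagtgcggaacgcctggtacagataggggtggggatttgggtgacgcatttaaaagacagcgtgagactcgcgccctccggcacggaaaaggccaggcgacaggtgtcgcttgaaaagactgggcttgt
UBD: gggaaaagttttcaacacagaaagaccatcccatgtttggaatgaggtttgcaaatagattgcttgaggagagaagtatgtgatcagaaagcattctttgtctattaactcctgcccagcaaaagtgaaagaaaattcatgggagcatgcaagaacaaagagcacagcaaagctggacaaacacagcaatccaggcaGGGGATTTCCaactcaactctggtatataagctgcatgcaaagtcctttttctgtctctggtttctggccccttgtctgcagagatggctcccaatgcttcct
The match of NFKBIA begins 81 bases before the start site and that of UBD 53 bases before it. TNFAIP3 holds 2 matches, 67 and 55 bases before the start, and BIRC3 holds 2, at 199 and 135 bases. Of 22 list members with a promoter in the table, 15 had a match, beside 5.72% of 27305 promoters. Of the 12 of them that were called in either direction 8 had one, and so did CCL20, CXCL1, CXCL3, IL6 and LCN2, which were not called. A match is a run of letters and does not show that the factor binds there.

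The 10 largest rises called with and without normal-medium replicates 4 to 6, at a mean of at least 5 CPM, were PTAFR, OR2I1P, UBD, CTSS, BIRC3, ICAM4-AS1, PLA2G2A, SPOCK2, CP and TNFAIP3. PTAFR, the receptor of the lipid mediator platelet-activating factor, was at 9.54, 10.3 and 12.2 CPM in insulin-resistant medium and 0.299, 0.550 and 0.928 CPM in normal medium. It had the largest log2 fold change of the 10, 4.22 ± 0.20 (edgeR adjusted p = 2.42e-16). CTSS, the lysosomal protease cathepsin S, was at 11.8, 12.7 and 14.6 CPM in insulin-resistant medium and 0.943, 1.67 and 2.04 CPM in normal medium, with 3.03 ± 0.16. PLA2G2A, a secreted phospholipase that frees fatty acids, had 2.25 ± 0.20, and SPOCK2, a matrix proteoglycan, 2.19 ± 0.18. None of the 10 genes had overlapping groups (2.02% of all genes in this direction), which their choice by size favours. OR2I1P (3.93) overlaps UBD on the opposite strand, and ICAM4-AS1 (2.27) overlaps ICAM1 on the opposite strand. Whether the authors counted by strand is not given in the sources used here, so that the reads of these pairs may not be told apart.

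Of the interferon and MHC class I list, whose genes serve antiviral defence and antigen presentation, 25 were tested and 9 higher and 1 lower (12.0% and 26.3% among all genes), and 6 and 0 without normal-medium replicates 4 to 6. TAP1 and TAPBP, which load peptides onto MHC class I, rose with log2 fold changes of 0.53 ± 0.06 and 0.97 ± 0.12. OAS1 and RIGI, sensors of viral RNA, rose with 0.92 ± 0.18 and 0.66 ± 0.13. The groups of these 4 genes did not overlap (2.02% of all genes in this direction). The list did not hold 1 direction across triplets: 18 members were higher and 1 lower in replicates 1 to 3 alone (18.0% and 21.4% among all genes), and 6 and 10 in replicates 7 to 9 alone (18.1% and 18.6%).

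Acute phase proteins, which the liver secretes into plasma in inflammation, split in both directions. Of 21 tested, 6 higher and 11 lower (12.0% and 26.3% among all genes), and 6 and 7 without normal-medium replicates 4 to 6. SERPINA3, the protease inhibitor antichymotrypsin, was at 140.2, 171 and 222 CPM in insulin-resistant medium and 27.2, 37.2 and 71.1 CPM in normal medium, a log2 fold change of 1.94 ± 0.18 (edgeR adjusted p = 7.37e-10). CP, the ferroxidase ceruloplasmin, rose with 2.09 ± 0.24 and HP, the haemoglobin-binding haptoglobin, with 1.07 ± 0.19. The groups of these 3 genes did not overlap (2.02% of all genes in this direction). LBP, which binds bacterial lipopolysaccharide, the complement protein C3 and SAA4, a serum amyloid, rose with 2.57, 0.50 and 0.79. The fibrinogen chains were lower: FGG stood at 287, 330.5 and 355 CPM in insulin-resistant medium and 463, 615 and 1171 CPM in normal medium, with -1.25 ± 0.18, and FGA and FGB were at -1.19 and -1.14. HAMP, the iron hormone hepcidin, fell by 2.36 ± 0.34, from a median of 1.25 to 0.248 CPM. Scaled to the hepatocyte identity genes, 11 members were higher and 6 lower, with a median of 0.16 beside 0.51 over all genes.

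**Figure D2:**
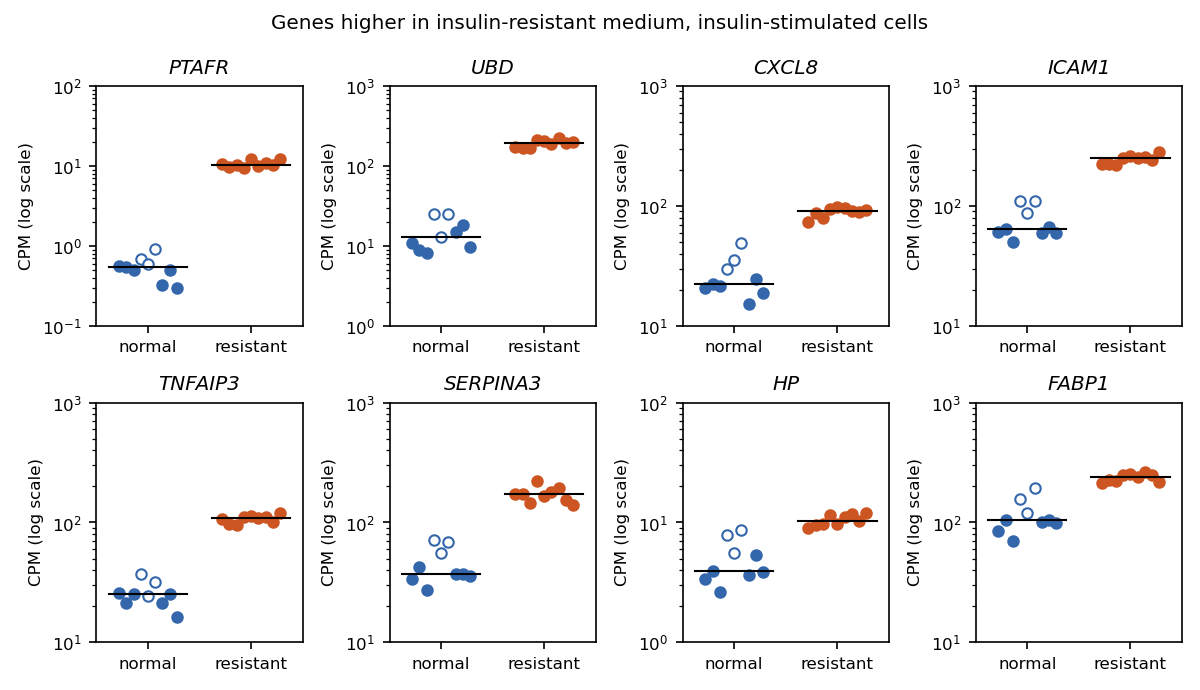
Levels of 8 genes that were higher in insulin-resistant medium, in TMM-scaled CPM on log axes that differ between panels. Each point is 1 library, the line is the median of 9, and open points are normal-medium replicates 4 to 6; in all 8 panels the insulin-resistant libraries lie above every normal-medium library.

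ER chaperones and the machinery of ER quality control were lower in insulin-resistant medium. These genes are targets of the unfolded protein response, in which IRE1, PERK and ATF6 sense misfolded proteins in the ER and raise its folding capacity. Of 23 tested, 0 higher and 20 lower (12.0% and 26.3% among all genes), and 0 and 19 without normal-medium replicates 4 to 6. The medians were -1.07 and -0.85. Scaled to hepatocyte genes the median was -0.48, with 2 members higher and 14 lower. For 18 members the groups did not overlap (10.2% of all genes in this direction), and 13 were lower with summed triplets. Taken alone, replicates 1 to 3 had 23 members lower (21.4% of all genes), and replicates 7 to 9 had 16 lower and 3 higher (18.6% and 18.1%).

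HSPA5, which encodes the main ER chaperone BiP, stood at 833, 1370 and 1463 CPM in insulin-resistant medium and 2532, 4561 and 7570 CPM in normal medium. Its 3 lowest values were those of insulin-resistant replicates 1 to 3 (833 to 861 CPM), and the groups did not overlap. The log2 fold change was -1.96 ± 0.18 (edgeR adjusted p = 4.44e-10), -1.65 without normal-medium replicates 4 to 6, -2.26 in replicates 1 to 3 alone and -1.08 in replicates 7 to 9 alone. SDF2L1, MANF and HYOU1, factors of ER protein folding, were at -1.95 ± 0.16, -1.77 ± 0.14 and -1.79 ± 0.18. DNAJC3 and DNAJB9, co-chaperones of BiP, were at -1.21 and -1.53, and ERN1, which encodes the sensor IRE1, at -1.52. XBP1, the transcription factor downstream of IRE1, was at -0.34 ± 0.10 (edgeR adjusted p = 0.00847), and at -0.16, not called, without normal-medium replicates 4 to 6. P4HB, SEC61B and CREB3L2 were not called, at -0.15, 0.10 and -0.08.

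The ER stress element, CCAAT followed by any 9 bases and CCACG, was searched in the same windows on both strands. It is printed in capitals in the promoters of HSPA5 at chr9:125241294-125241593 (minus strand) and of HSP90B1, the chaperone GRP94, at chr12:103930160-103930459 (plus strand), since both genes fell.
HSPA5: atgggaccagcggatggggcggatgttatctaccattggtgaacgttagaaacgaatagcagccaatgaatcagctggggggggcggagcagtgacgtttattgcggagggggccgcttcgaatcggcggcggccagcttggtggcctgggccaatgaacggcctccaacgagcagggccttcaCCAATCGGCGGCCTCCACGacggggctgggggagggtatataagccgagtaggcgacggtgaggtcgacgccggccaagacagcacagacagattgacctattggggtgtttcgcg
HSP90B1: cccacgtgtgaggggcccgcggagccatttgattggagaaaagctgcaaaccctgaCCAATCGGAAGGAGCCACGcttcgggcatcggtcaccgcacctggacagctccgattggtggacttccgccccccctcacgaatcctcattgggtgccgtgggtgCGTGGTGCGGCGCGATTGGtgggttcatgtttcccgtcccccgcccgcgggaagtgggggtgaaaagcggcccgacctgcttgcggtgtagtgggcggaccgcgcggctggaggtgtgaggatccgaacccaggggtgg
The element of HSPA5 begins 66 bases before the start site, and HSP90B1 holds 2, 194 and 89 bases before it. Of 22 chaperone list members with a promoter in the table, 6 had a match, beside 0.0806% of 27305 promoters. The 6 were HSPA5, HSP90B1, CALR, CANX, CRELD2 and XBP1, each called lower with all libraries. Of the 22, 19 were called lower, so that the calls do not set the members with a match apart. A match does not show that a factor binds there. HSP90B1 was at 1211, 1227 and 1327 CPM in insulin-resistant medium and 1796, 2654 and 4422 CPM in normal medium, a log2 fold change of -1.16 ± 0.13 with no overlap.

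The ATF4 list holds the stress response downstream of PERK and of amino acid sensing, with enzymes and transporters of amino acids. Of 25 tested, 0 higher and 16 lower (12.0% and 26.3% among all genes), and 1 and 15 without normal-medium replicates 4 to 6, with medians of -0.77 and -0.53. DDIT3, which encodes the stress factor CHOP, was at 21.6, 33.2 and 36.4 CPM in insulin-resistant medium and 85.1, 108 and 164 CPM in normal medium, a log2 fold change of -2.04 ± 0.20 (edgeR adjusted p = 1.53e-09). CTH, an enzyme of cysteine synthesis, was at -1.90 ± 0.16, and ATF3, a stress-induced transcription factor, at -1.75 ± 0.17. PPP1R15A, which restores translation after stress, was at -1.64 ± 0.13 and CEBPB, a transcription factor of the liver, at -1.52 ± 0.14. None of these 5 genes had overlapping groups (10.2% of all genes in this direction). In the serine and folate branch SHMT2 and MTHFD2 fell, at -0.77 and -0.93, while PHGDH and PSAT1 were not called, at 0.00 and -0.16. In replicates 7 to 9 alone 10 members were lower and 5 higher (18.6% and 18.1% of all genes), and scaled to hepatocyte genes 9 were lower and 2 higher. The amino acid response element, TGATG, any 1 base and AAT on either strand, was in 0 of 19 promoters of the list, beside 1.02% of all promoters.

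Ribosome biogenesis genes, which make and process ribosomal RNA, were lower for 24 of 24 tested, with all libraries and again without normal-medium replicates 4 to 6 (26.3% and 13.9% of all genes). The medians were -0.91 and -0.64, and scaled to hepatocyte genes -0.30 with 18 lower. DKC1, the pseudouridine synthase of ribosomal RNA, was at 88.3, 97.0 and 102 CPM in insulin-resistant medium and 138, 192 and 273 CPM in normal medium, a log2 fold change of -1.15 ± 0.11 (edgeR adjusted p = 9.51e-10). RRP12 and RRP9, processing factors, were at -1.23 ± 0.12 and -1.15 ± 0.11, GNL3, a nucleolar GTPase, at -0.83 ± 0.08, and DDX21, a nucleolar helicase, at -1.30 ± 0.13. The groups did not overlap for 22 of the 24 (10.2% of all genes in this direction), the exceptions being POLR1A and NPM1. With summed triplets 19 were lower (3.01% of all genes). In replicates 1 to 3 and 7 to 9 alone 23 and 21 were lower (21.4% and 18.6% of all genes).

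NRF2 targets, which make glutathione and detoxify reactive compounds, were tested for 24 genes with 0 higher and 17 lower (12.0% and 26.3% among all genes), and 0 and 14 without normal-medium replicates 4 to 6. The medians were -0.68 and -0.46. With averaged TMM 16 were lower and 2 higher, and scaled to hepatocyte genes 7 were lower and 5 higher. GCLC, the catalytic subunit of the limiting enzyme of glutathione synthesis, was at 45.7, 52.6 and 58.0 CPM in insulin-resistant medium and 122, 182 and 292 CPM in normal medium, a log2 fold change of -1.95 ± 0.15 (edgeR adjusted p = 3.02e-11). AKR1C2, a ketosteroid reductase, was at 10.8, 12.7 and 14.4 CPM in insulin-resistant medium and 63.9, 116 and 204 CPM in normal medium. Its log2 fold change was -3.23 ± 0.21, and -2.75 without normal-medium replicates 4 to 6. AKR1B10, AKR1C1 and AKR1C3 of the same family were at -1.82, -1.62 and -1.24. The AKR1C genes are close paralogs among which the counting could split reads, so that their separate values are uncertain. SRXN1, which repairs oxidised peroxiredoxins, was at -1.14 ± 0.09, and NFE2L2, which encodes NRF2 itself, at -0.65.

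MAPK feedback and early genes follow growth factor signalling through ERK. Of 21 tested, 0 higher and 14 lower (12.0% and 26.3% among all genes), and 0 and 13 without normal-medium replicates 4 to 6, but 3 were lower with summed triplets. The medians were -0.73 and -0.70, and -0.12 when scaled to hepatocyte genes, with 1 higher and 5 lower. DUSP6, a phosphatase that switches ERK off, was at 40.1, 45.6 and 54.9 CPM in insulin-resistant medium and 80.9, 95.3 and 120.3 CPM in normal medium, a log2 fold change of -1.03 ± 0.11. SPRY4, an inhibitor of receptor tyrosine kinase signalling, was at -1.57 ± 0.17, and EREG, a ligand of the EGF receptor, at -1.91 ± 0.24, from a median of 110.2 to 31.1 CPM. The groups of these 3 genes did not overlap (10.2% of all genes in this direction).

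The 10 largest falls, chosen as the rises were, were AKR1C2, KLHDC7B, ADH4, KLF15, IGFBP1, DLK1, JAG1, TAT, HK2 and PLEKHH2. None had overlapping groups (10.2% of all genes in this direction), which that choice favours. JAG1, a ligand of Notch receptors, was at 73.8, 82.3 and 104 CPM in insulin-resistant medium and 248, 377 and 644 CPM in normal medium, a log2 fold change of -2.35 ± 0.19. DLK1, a non-canonical Notch ligand of fetal liver, was at 4.03, 4.38 and 4.86 CPM in insulin-resistant medium and 15.9, 20.4 and 39.4 CPM in normal medium, with -2.48 ± 0.18. ADH4, an alcohol dehydrogenase of hepatocytes, was at -2.73 ± 0.19, and KLHDC7B and PLEKHH2 at -3.14 ± 0.36 and -2.15 ± 0.25.

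**Figure D3:**
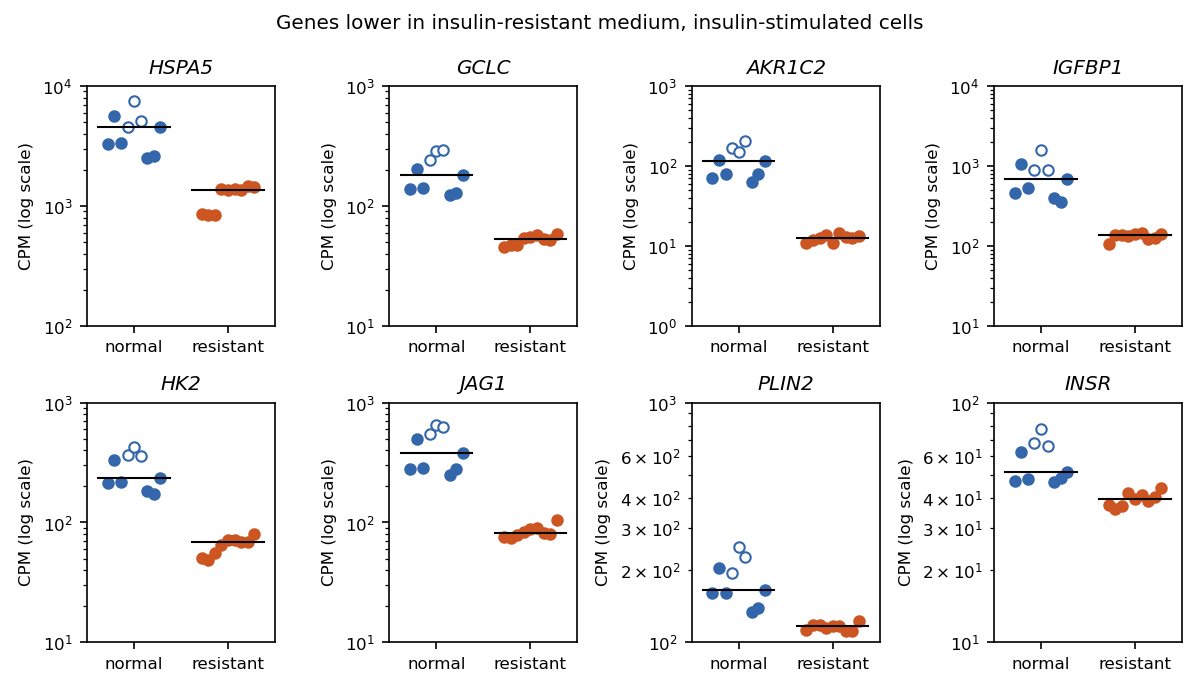
Levels of 8 genes that were lower in insulin-resistant medium, in TMM-scaled CPM on log axes that differ between panels. Each point is 1 library, the line is the median of 9, and open points are normal-medium replicates 4 to 6; in all 8 panels the insulin-resistant libraries lie below every normal-medium library.

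The receptor and its pathway differed less. IGF1R, the gene targeted in all libraries, was at 75.8, 108 and 124 CPM in insulin-resistant medium and 76.1, 93.8 and 112 CPM in normal medium, a log2 fold change of 0.04 ± 0.13 (edgeR adjusted p = 0.847). Counts over the whole gene do not check the edit. INSR, the insulin receptor, was at 35.9, 39.7 and 44.0 CPM in insulin-resistant medium and 46.6, 51.2 and 77.8 CPM in normal medium, so that every insulin-resistant library lay below every normal one. The fitted change was -0.56 ± 0.12 on the log2 scale (edgeR adjusted p = 0.000231). Without normal-medium replicates 4 to 6 it was -0.30 and the call was lost (edgeR adjusted p = 0.06), and it was -0.49 in replicates 1 to 3 alone (edgeR adjusted p = 0.028) and -0.15 in replicates 7 to 9 alone (edgeR adjusted p = 0.109). Scaled to hepatocyte genes it was 0.04.

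IRS1, the first of the adaptors, was at -0.14 ± 0.14 (not called), with groups that overlapped. It was at 0.18 in replicates 1 to 3 alone (not called) and at -0.51 in replicates 7 to 9 alone, where it was called lower (edgeR adjusted p = 0.00283). IRS2, the other adaptor and a FOXO1 target, was at 0, 0 and 0.0928 CPM in normal-medium replicates 4 to 6, at 13.1 to 53 CPM in the other 6 normal-medium libraries and at 24.6 to 41.5 CPM in insulin-resistant medium. The 3 libraries nearly without IRS2 were the 3 nearly without collagen transcripts. Its log2 fold change was 0.42 ± 0.98 with them and -0.13 without, neither called. Of 24 pathway genes 1 higher and 11 lower (12.0% and 26.3% among all genes). Without normal-medium replicates 4 to 6 (13.9% of all genes lower) PDPK1 and PIK3CA, kinases of the pathway, were the 2 lower genes, at -0.33 and -0.37, and AKT2 was higher, at 0.18. Scaled to hepatocyte genes 9 were higher and 0 lower, with a median of 0.38 beside 0.51 over all genes. With summed triplets the counts were 0 and 0 by edgeR.

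Gluconeogenic and FOXO1 target genes split by gene. G6PC1, which encodes the enzyme that releases free glucose, was near the detection limit, at 6 to 13 counts per library in insulin-resistant and 1 to 16 in normal medium, with 0.31 ± 0.34 (edgeR adjusted p = 0.507). PCK1, which makes phosphoenolpyruvate, was at 1.61, 1.83 and 2.95 CPM in insulin-resistant medium and 2.49, 3.10 and 5.85 CPM in normal medium, so that the groups overlapped in part. It fell by 1.00 ± 0.18 (edgeR adjusted p = 4.45e-05) and was still called at -0.58 without normal-medium replicates 4 to 6. IGFBP1, an IGF-binding protein that insulin represses, was at 105, 137 and 144 CPM in insulin-resistant medium and 354, 695 and 1569 CPM in normal medium. The fitted change was -2.55 ± 0.25 on the log2 scale (edgeR adjusted p = 1.94e-09), and -2.42 and -1.79 in replicates 1 to 3 and 7 to 9 alone.

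KLF15, a regulator of amino acid use for gluconeogenesis, was at -2.66 ± 0.20, and TAT, a tyrosine-degrading enzyme, at -2.28 ± 0.22. PPARGC1A, the coactivator PGC-1alpha, was at -1.39 ± 0.21. Of 24 genes of the list 2 higher and 9 lower (12.0% and 26.3% among all genes), and the same 9 lower and 2 higher genes were called without normal-medium replicates 4 to 6. The higher ones were FOXO4 (0.66), a FOXO factor, and SESN3 (0.38), a stress-induced sestrin. The median was -0.21, and 0.35 when scaled to hepatocyte genes (0.51 over all genes), where 8 were higher and 7 lower. The FOXO element TGTTTAC on either strand was in 2 of 20 promoters of the list, beside 3.41% of all promoters.

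SLC2A1, SLC2A3 and HK2, which take up and phosphorylate glucose, were lower, while the glycolysis list they belong to had no common direction. SLC2A1 and SLC2A3, the glucose transporters GLUT1 and GLUT3, were at -1.06 ± 0.11 and -1.13 ± 0.12, with SLC2A1 at 336, 448 and 503 CPM in insulin-resistant medium and 621, 800.1 and 1135 CPM in normal medium. HK2, an inducible hexokinase, was at 48.8, 68.7 and 79.6 CPM in insulin-resistant medium and 172, 234 and 422 CPM in normal medium, a log2 fold change of -2.18 ± 0.16 (edgeR adjusted p = 3.17e-12). The groups of these 3 genes did not overlap (10.2% of all genes in this direction). All 3 were called lower under each of the 4 other scalings or tools tried. Of 25 genes 2 higher and 5 lower (12.0% and 26.3% among all genes), and 2 and 3 without normal-medium replicates 4 to 6. The medians were 0.33 and 0.08, and 0.76 when scaled to hepatocyte genes (0.51 over all genes), with 7 higher and 3 lower. The triplets went opposite ways: 1 was higher and 10 lower in replicates 1 to 3 alone, and 15 and 5 in replicates 7 to 9 alone (18.0% and 21.4%, and 18.1% and 18.6%, among all genes). Of 18 hypoxia genes, among which SLC2A1 and HK2 are also listed, 1 higher and 3 lower (12.0% and 26.3% among all genes). Without normal-medium replicates 4 to 6 these counts were 0 and 3. The hypoxia genes too were split by triplet: 2 were higher and 8 lower in replicates 1 to 3 alone, and 13 and 4 in replicates 7 to 9 alone. The shares among all genes are those given for glycolysis. VEGFA, an angiogenic factor, was at -1.06 ± 0.16, while BNIP3, a mitophagy receptor, was at 0.57 ± 0.23 (edgeR adjusted p = 0.0485). BNIP3 was not called without normal-medium replicates 4 to 6, nor without any 1 of 6 libraries (0.54 to 0.59): stimulated normal-medium replicates 6, 7, 8 and 9, untreated normal-medium replicate 2 and stimulated insulin-resistant replicate 4.

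Lipid synthesis genes had no common direction. SREBF1, which encodes the lipogenic factor SREBP-1, was at -0.31 ± 0.08 (edgeR adjusted p = 0.0023), and FASN, the fatty acid synthase, at -0.64 ± 0.16 (edgeR adjusted p = 0.00136). Without normal-medium replicates 4 to 6 they were at -0.08 and -0.26 and neither was called. SREBF1 was also not called without normal-medium replicate 6 alone (-0.18, edgeR adjusted p = 0.087). SCD, the stearoyl desaturase, was not called at -0.27 ± 0.14. GPAM, which starts glycerolipid synthesis, and ACSL3, which activates fatty acids, were at -1.11 ± 0.15 and -0.79 ± 0.12 and stayed called without those replicates. Of 20 fatty acid synthesis genes 4 higher and 9 lower (12.0% and 26.3% among all genes), and 4 and 4 without them. Scaled to hepatocyte genes 12 were higher and 2 lower, with a median of 0.39 beside 0.51 over all genes.

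Cholesterol synthesis genes depended on the normal-medium libraries used. Of 25 genes 3 higher and 8 lower with all libraries (12.0% and 26.3% among all genes), and 7 and 1 without normal-medium replicates 4 to 6 (12.7% and 13.9%). The gene that was lower in both was STARD4, a sterol carrier, at -0.99 ± 0.11 and -0.73. The medians were -0.10 and 0.14, and 0.48 when scaled to hepatocyte genes (0.51 over all genes), with 20 higher and 1 lower.

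PLIN2, the coat protein of lipid droplets, was at 112, 117 and 122 CPM in insulin-resistant medium and 134, 166 and 251 CPM in normal medium, lower in every insulin-resistant library. The fitted change was -0.69 ± 0.12 on the log2 scale (edgeR adjusted p = 2.97e-05), -0.57 and -0.24 in replicates 1 to 3 and 7 to 9 alone, called in each, and -0.09, not called, when scaled to hepatocyte genes. CIDEC, a protein of droplet fusion, rose with 0.85 ± 0.19. FABP1, the liver fatty acid carrier, was at 215, 240.5 and 261 CPM in insulin-resistant medium and 70.4, 104 and 193 CPM in normal medium, a log2 fold change of 1.00 ± 0.16 without overlap. Of 17 droplet and lipolysis genes 2 higher and 6 lower (12.0% and 26.3% among all genes), and 2 and 3 of 18 without normal-medium replicates 4 to 6. The medians were -0.21 and -0.03. Scaled to hepatocyte genes, 9 were higher and 1 lower, with a median of 0.34, beside 0.51 over all genes.

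ANGPTL8, a secreted inhibitor of lipoprotein lipase, fell by 1.00 ± 0.20. MTTP, which loads lipid onto apolipoprotein B, was at -0.97 ± 0.18. Of 20 lipoprotein genes 2 higher and 7 lower (12.0% and 26.3% among all genes), and 6 and 3 without normal-medium replicates 4 to 6. The medians were -0.15 and 0.16, and 0.47 when scaled to hepatocyte genes (0.51 over all genes), with 12 higher and 3 lower. ANGPTL4, a PPAR target and inhibitor of the same lipase, was at 13.2 to 29.5 CPM in normal-medium replicates 1 to 3 and at 0.235 to 0.936 CPM in the other 6, against 0.544 to 1.59 CPM in insulin-resistant medium. Its fall by 3.24 ± 1.06 (edgeR adjusted p = 0.0153) lay in 1 triplet: it was -4.97 in replicates 1 to 3 alone and 0.94 in replicates 7 to 9 alone. It was not called without normal-medium replicate 2, stimulated or untreated (-2.61 and -2.57).

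Of fatty acid oxidation genes and PPAR targets, 25 were tested, 6 higher and 4 lower (12.0% and 26.3% among all genes), and 9 and 2 without normal-medium replicates 4 to 6. Scaled to hepatocyte genes 21 were higher and 2 lower, with a median of 0.65, beside 0.51 over all genes. CPT2, an enzyme of mitochondrial fatty acid import, rose with 0.26 ± 0.05. CPT1A, the rate-setting carnitine transferase, was not called at 0.18 ± 0.14, but was called higher in replicates 7 to 9 alone, at 0.48. FGF21, a fasting hormone, had 2 to 6 counts per library against 1 to 28, a log2 fold change of -2.32 ± 0.47. Among bile acid genes, CYP7A1, the rate-limiting enzyme of bile acid synthesis, was at 1.12, 1.70 and 2.40 CPM in insulin-resistant medium and 3.59, 5.32 and 8.98 CPM in normal medium, with -1.83 ± 0.20. CYP8B1, which directs synthesis to cholic acid, rose with 1.94 ± 0.34, from a median of 0.156 to 0.629 CPM, and NR1H4, the bile acid receptor FXR, fell by 1.40 ± 0.20. The groups of these 3 genes did not overlap, beside 2.02% of all genes above and 10.2% below without overlap. Of 17 genes of the LXR and bile acid list 2 higher and 7 lower (12.0% and 26.3% among all genes), and 2 and 4 without normal-medium replicates 4 to 6 (12.7% and 13.9%). The medians were -0.36 and 0.04, and 0.31 when scaled to hepatocyte genes (0.51 over all genes), with 8 higher and 4 lower.

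Hepatocyte identity genes were tested for 25 members, 1 higher and 20 lower (12.0% and 26.3% among all genes), with a median of -0.65. Without normal-medium replicates 4 to 6, 1 was higher and 8 were lower, with a median of -0.20, beside 13.9% of all genes lower. ALB, which encodes albumin, was at 3457, 3905 and 4436 CPM in insulin-resistant medium and 4832, 6682 and 12100 CPM in normal medium, a log2 fold change of -1.04 ± 0.18, and -0.60 without those replicates. SERPINC1, which encodes antithrombin, CEBPA, a hepatocyte transcription factor, and FGB were at -1.16, -0.79 and -0.67 without them, each called. TTR, the thyroxine carrier transthyretin, was the 1 gene that rose, with 0.54 ± 0.16. With summed triplets 1 gene of the list was lower. The stromal markers had medians of 0.69 and 0.11 in the same fits, and their part in the hepatocyte values was not tested. LEAP2, the liver-expressed peptide of the series title, was at 0.832, 0.942 and 1.21 CPM in insulin-resistant medium and 0.685, 1.07 and 1.80 CPM in normal medium and was not called, with -0.17 ± 0.18 (edgeR adjusted p = 0.497) and 0.17 without normal-medium replicates 4 to 6.

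Growth and energy lists were mixed. Of 25 cell cycle genes 0 higher and 5 lower, of 20 p53 targets 3 higher and 6 lower and of 24 respiratory chain genes 6 higher and 4 lower (12.0% and 26.3% among all genes). Without normal-medium replicates 4 to 6 the counts were 0 and 2, 4 and 6, and 4 and 0 (12.7% and 13.9%). The p53 targets went opposite ways by triplet: 12 were higher and 4 lower in replicates 1 to 3 alone, and 1 and 9 in replicates 7 to 9 alone. Among all genes these shares were 18.0% and 21.4%, and 18.1% and 18.6%. Scaled to hepatocyte genes 5 cell cycle genes were higher and 1 lower, 13 and 3 of the p53 targets, and 21 and 0 of the respiratory chain genes. The medians were then 0.18, 0.65 and 0.57, beside 0.51 over all genes. GDF15, a stress hormone on the p53 list, was at -1.84 ± 0.18, and CCNE2, an S-phase cyclin, at -2.06 ± 0.60. CCNE2 was at 11.6 to 24.6 CPM in normal-medium replicates 1 to 3 and at 2.27 to 3.58 CPM in the other 6, beside 1.17 to 3.41 CPM in insulin-resistant medium. It was called lower at -2.71 in replicates 1 to 3 alone and at -0.77 in replicates 7 to 9 alone. It was not called with only the 2 groups fitted (-1.47) or with summed triplets (-1.95).

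Other cell types were looked for by their markers. Of 10 leukocyte markers tested from a list of 16, 4 higher and 0 lower (12.0% and 26.3% among all genes), among the higher ones ITGAM (4.90 ± 0.31), CD3D (1.99 ± 0.26) and LYZ (0.96 ± 0.16). The counts were 4 and 0 again without normal-medium replicates 4 to 6. ITGAM and CD3D had few reads, with 1 to 11 and 4 to 26 counts per library in normal medium. In insulin-resistant medium they had 98 to 159 and 30 to 57. PTPRC, the defining CD45 gene of leukocytes, was at 0 to 0.247 CPM in normal and 0.0840 to 0.408 CPM in insulin-resistant medium and was not called, and 4 to 8 of the 16 markers were at 0 in each library. Summed over the list, the level was 344 to 911 CPM of the library total in normal and 988 to 1133 in insulin-resistant medium. Most of that sum was LYZ. The median over the list was 0.0263 to 0.121 CPM of the library total in normal and 0.117 to 0.225 in insulin-resistant medium. LYZ, a lysozyme, was at 956, 1091 and 1201 CPM in insulin-resistant medium and 351, 476 and 846 CPM in normal medium. The part of such markers in the rise of the inflammatory genes was not tested. Of 8 endothelial markers 1 higher and 2 lower, and of 10 cholangiocyte markers 2 higher and 2 lower (12.0% and 26.3% among all genes). Without normal-medium replicates 4 to 6 the counts were 2 and 0 of 9, and 5 and 1 of 10 (12.7% and 13.9% among all genes). The median over the cholangiocyte list was 0.631 to 0.947 CPM of the library total in those replicates. It was 53.9 to 78.0 in the other 6 normal-medium libraries.

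**Figure D4:**
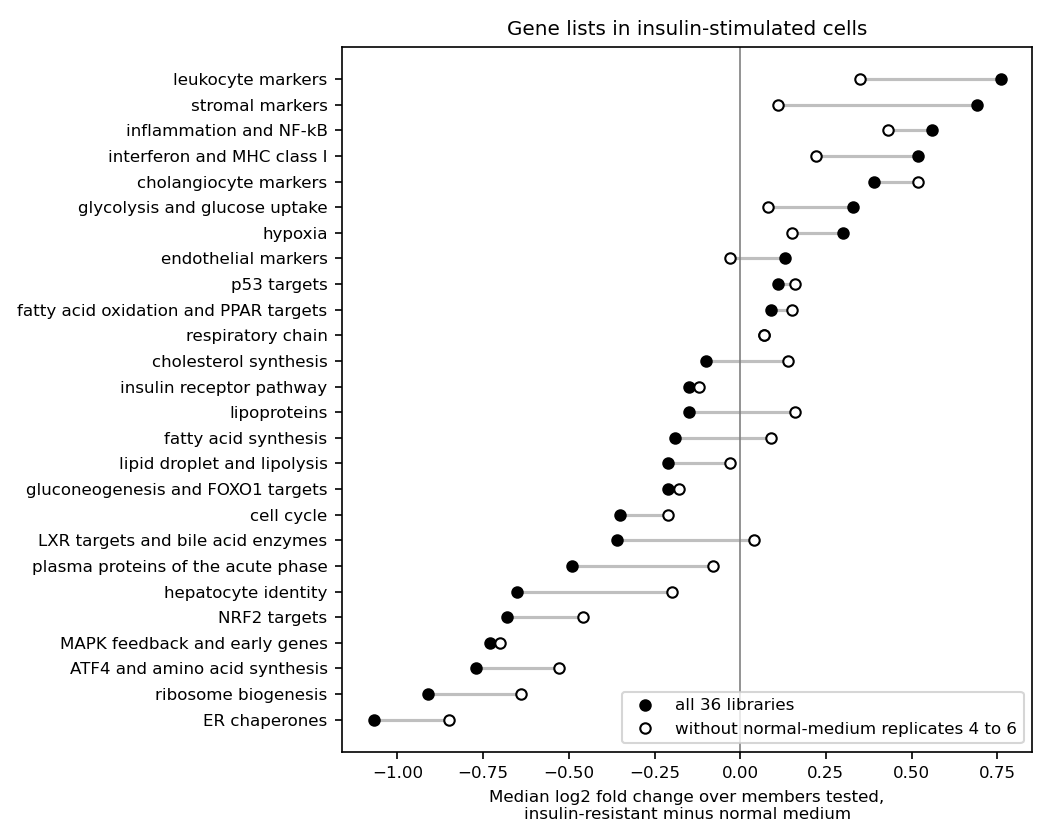
Median log2 fold change of each of 26 gene lists, insulin-resistant minus normal medium in stimulated cells, with all 36 libraries (filled) and without normal-medium replicates 4 to 6 (open). The chaperone and ribosome biogenesis lists lie lowest with all libraries, at -1.07 and -0.91, while the medians of the cholesterol, fatty acid synthesis, lipoprotein, LXR and endothelial lists change sign between the 2 fits.

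The medium acted differently in stimulated and in untreated cells for many genes. In untreated cells 2385 genes were higher (13.3%) and 1551 lower (8.62%) in insulin-resistant medium. The test of the difference, stimulated minus untreated, called 1119 genes above 0 (6.22%) and 4233 below 0 (23.5%), and 1244 (6.79%) and 1900 (10.4%) without stimulated normal-medium replicates 4 to 6. Untreated insulin-resistant replicates 1 to 3 also lacked stromal transcripts, and without these as well the counts were 2266 and 1709. Summed triplets gave 1 and 4. Leaving out 1 library at a time gave 1084 to 2125 genes above 0. They were 1691 or more without stimulated normal-medium replicate 2, 4 or 5, untreated normal-medium replicate 5 to 9, any stimulated insulin-resistant replicate, or untreated insulin-resistant replicate 1 or 3 to 9. Below 0 it gave 2494 to 4440, with 2494 to 2794 without stimulated normal-medium replicate 4, 5 or 6, untreated normal-medium replicate 4, stimulated insulin-resistant replicate 2 or untreated insulin-resistant replicate 1, 2 or 3.

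For the chaperones, 20 of 23 had a difference below 0 (23.5% of all genes), and 19 without stimulated normal-medium replicates 4 to 6 (10.4%, and 6.79% above 0). In untreated cells 0 were lower and 1 higher by edgeR, with a median of 0.10. HSPA5 was at 0.04 ± 0.16 in untreated cells (edgeR adjusted p = 0.911) beside -1.96 in stimulated ones (adjusted p of the difference 4.27e-07). Of the ribosome biogenesis genes 22 of 24 had a difference below 0, with a median of 0.12 in untreated cells. Of the ATF4 list 16 of 25 did, and of NRF2 targets 12 of 24. Without those replicates these counts were 22, 11 and 9. GCLC, for example, was at -0.09 ± 0.14 without insulin and -1.95 with it.

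The inflammatory genes were higher under both conditions. In untreated cells 15 of 21 were higher (13.3% of all genes), with a median of 1.72, and 9 had a difference below 0, or 7 of 22 without stimulated normal-medium replicates 4 to 6. CXCL8 was at 4.32 ± 0.22 untreated and 1.66 ± 0.21 stimulated (difference -2.66, edgeR adjusted p = 5.79e-08), and ICAM1 at 2.95 and 1.68. For TNFAIP3, UBD and PTAFR no difference was called (edgeR adjusted p = 0.408, 0.545 and 0.12). HP changed sign, with -0.82 ± 0.18 untreated and 1.07 ± 0.19 stimulated, and so did EREG (2.35 and -1.91), ANGPTL8 (1.91 and -1.004), PLIN2 (0.71 and -0.69) and KLHDC7B (1.78 and -3.14). SREBF1 was called in opposite directions too, at 0.23 untreated (edgeR adjusted p = 0.0234) and -0.31 stimulated, the latter call being lost without normal-medium replicates 4 to 6. FASN was at 0.20 untreated (not called) and -0.64 stimulated. G6PC1 was at -4.37 ± 0.31 untreated and 0.31 ± 0.34 stimulated. For IGFBP1, AKR1C2 and HK2 the stimulated log2 fold change was the lower, at -2.55, -3.23 and -2.18 beside -1.30, -1.85 and -0.28 untreated. Without stimulated normal-medium replicates 4 to 6 the difference of IGFBP1 was -0.79, not called (edgeR adjusted p = 0.0682), while those of AKR1C2 and HK2 were called, at -0.88 and -1.52.

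**Figure D5:**
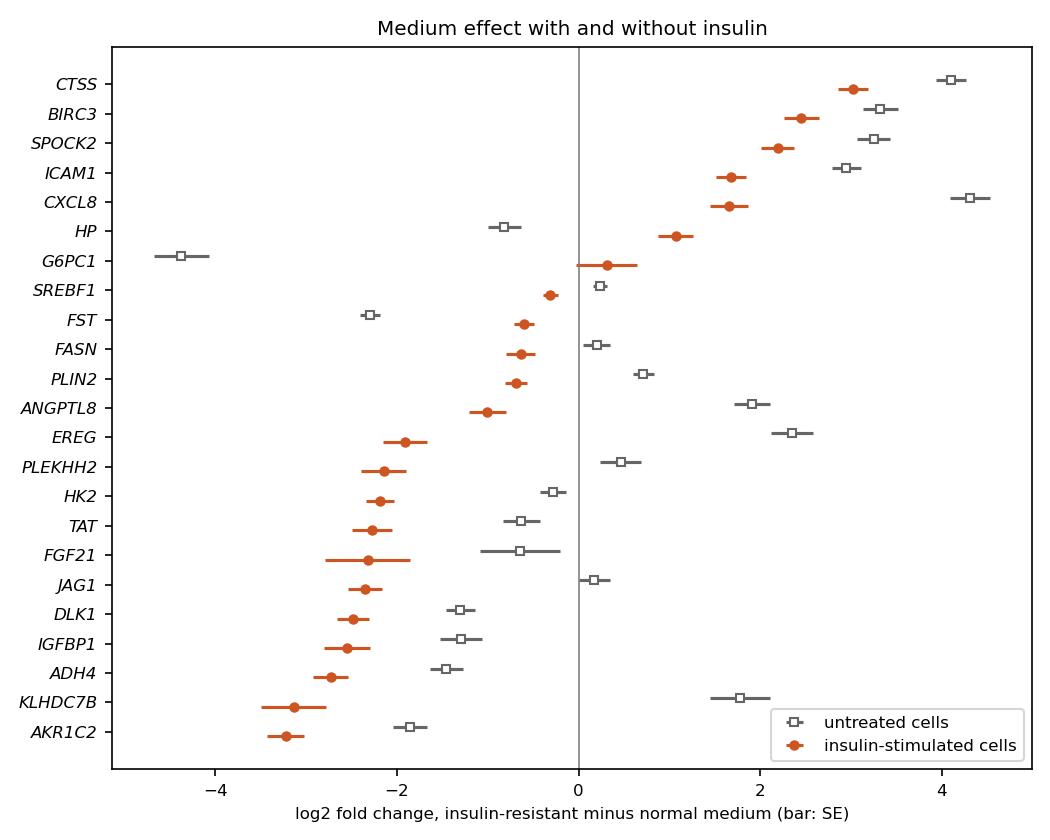
Log2 fold changes with SE, insulin-resistant minus normal medium, in stimulated and untreated cells, for the 23 key genes and largest changes whose difference was called. CXCL8 lies at 1.66 stimulated and 4.32 untreated, and ANGPTL8, EREG, FASN, G6PC1, HP, JAG1, KLHDC7B, PLEKHH2, PLIN2 and SREBF1 lie on opposite sides of 0.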

How the data were processed

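The analysis began from a deposited table of expected counts, that is, estimated and partly fractional reads for each Ensembl gene. Per the labels' protocols, poly-A mRNA was made into strand-specific libraries. GRCh37, Salmon and STAR are named, per the submitters' processing notes, without versions. Neither the annotation nor the strand setting is given in the sources used here. The expected counts (15.5% of values not whole) were rounded. Symbols were matched by Ensembl ID for 51994 of 57771 genes (90.0%). Depth was 30.6M to 111.9M counts per stimulated library.

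All 36 libraries (4 groups of 9) were fitted in edgeR 4.0.16 (R 4.3.3) with group and batch terms, the batch being the date in the labels, TMM, filterByExpr, a robust quasi-likelihood F-test and Benjamini-Hochberg adjustment. No replicate pair agreed within sampling noise (lowest chi-square per gene 4.3). On simulated counts for this comparison (17760 genes), 56%, 80%, 94% and 94% of genes changed by 1.5, 2, 4 and 8 times were called, and 0.06% of unchanged ones. The simulated libraries were independent and shared a common mean per gene. They held no triplets, batch effects or stromal differences, so that these shares do not carry over to the real libraries.

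Named genes are 25 key genes where tested, the 10 largest rises and falls (report), and up to 4 members of each of 26 lists with the smallest adjusted p: 124 genes, 111 called, after leaving out some genes that are not reported here. Other genes were named, to complete a count or as examples, after their values were seen. Of 584 list entries 577 were found; the others were not analysed here. Genes, lists and alternatives were chosen with earlier results of these data known, and list counts carry no test. Alternatives were left-out libraries, triplets, batches, scaling, filters and DESeq2 1.42.0. Promoters were matched by symbol.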

Additional observations from a re-analysis of the deposited data

Results flagged for a closer look

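In 5 of 82 groups of 9 libraries, 1 library lay far from the rest, its gap to the nearest other being over Dixon's critical share of the range; chance alone gives about 1 in 20 such groups. In insulin-resistant medium these were PCK1 in replicate 9 (2.95 CPM, the others at 1.61 to 1.98), SREBF1 in replicate 3 (80.6 CPM, the others at 91.2 to 95.6), FGF21 in replicate 3 (0.0926 CPM, the others at 0.0302 to 0.0558) and KLF15 in replicate 1 (1.94 CPM, the others at 1.05 to 1.39). In normal medium it was PLEKHH2 in replicate 5 (53.5 CPM, the others at 8.32 to 27.8).

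The effect of the medium differed between stimulated and untreated cells, by edgeR's test of the difference, for 23 of 41 key genes and largest changes, and for 18 of the 41 without stimulated normal-medium replicates 4 to 6. Among all genes 6.22% differed above 0 and 23.5% below 0, and 6.79% and 10.4% without those replicates. The largest changes were chosen by their stimulated log2 fold change, which enters the difference, so that the choice favours calls. Over all genes, summed triplets gave 1 above and 4 below 0. The difference, stimulated minus untreated on the log2 scale, was below 0 for KLHDC7B (-4.92), EREG (-4.27), ANGPTL8 (-2.92), CXCL8 (-2.66), PLEKHH2 (-2.61), JAG1 (-2.53), HK2 (-1.90), FGF21 (-1.68), TAT (-1.65), PLIN2 (-1.41), AKR1C2 (-1.37), ICAM1 (-1.27), ADH4 (-1.27), IGFBP1 (-1.25), DLK1 (-1.18), CTSS (-1.08), SPOCK2 (-1.06), BIRC3 (-0.87), FASN (-0.84) and SREBF1 (-0.55). It was above 0 for G6PC1 (4.68), HP (1.89) and FST (1.70). Without those replicates the difference was no longer called for IGFBP1 (-0.79, edgeR adjusted p = 0.0682), FASN (-0.45, edgeR adjusted p = 0.115), FGF21 (-1.08, edgeR adjusted p = 0.3), BIRC3 (-0.66, edgeR adjusted p = 0.0769) and SPOCK2 (-0.61, edgeR adjusted p = 0.0675).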

How the results depend on the processing

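Of 111 called genes named by the rule, 93 kept their call without normal-medium replicates 4 to 6. Under every alternative in which they were tested 48 kept it, since filters left out some genes in some alternatives. Of the 111, 17 changed sign under at least 1 alternative. The cause was not tested. Counts of genes higher and lower, where they moved by over 1.5 times, were 3236 higher (without those replicates and untreated insulin-resistant replicates 1 to 3), 2539 lower (without those replicates), 2812 lower (only the 2 groups fitted), 2992 lower (without the 24 May batch), 3551 higher (plate-set term) and 3441 higher (DESeq2). Both counts moved with scaling to hepatocyte genes (7550 and 645, or 3424 and 693 without replicates 4 to 6), a minimum fold of 1.2 (949 and 2479), summed triplets (328 and 616), and the 22 April (476 and 629) and 11 April batches (960 and 1930). Leaving out 1 library gave 2050 to 3477 higher and 3145 to 4848 lower.

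Counts of differences between stimulated and untreated cells, above and below 0, were 1900 below 0 without normal-medium replicates 4 to 6, and 2266 and 1709 without untreated insulin-resistant replicates 1 to 3 as well. Above 0 they were 2663 (plate-set term), 2247 (DESeq2), 1840 (DESeq2 size factors), 1815 (averaged TMM), 2000 (scaling to hepatocyte genes, 737 below 0) and 1682 (at least 1 CPM in 9 libraries). Below 0 they were 854 (that scaling without replicates 4 to 6), 2567 (no filter) and 2269 (without the 24 May batch). A minimum fold of 1.2 gave 439 and 2429, summed triplets 1 and 4, the 22 April batch 3 and 1 and the 11 April batch 90 and 546. Leaving out 1 library gave 1084 to 2125 and 2494 to 4440.

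Same-numbered libraries of the groups did not deviate together (correlations of -0.238 to 0.187, 2 of 9 pairs over 0.1, 1 library closest to its own number), and the main fit did not pair them. Stromal RNA differed between triplets, and not alike in the 2 groups, which can hide a pairing, so that the check cannot exclude it. A replicate block gave 3001 higher and 4906 lower, and 2008 differences above and 4487 below 0.

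Scaling to hepatocyte genes put the median of all genes at 0.51, and at 0.22 without normal-medium replicates 4 to 6. These genes had the opposite sign. Within the 11 April batch, ANGPTL4 (0.99). Within the 22 April batch, LEAP2 (0.16), IGF1R (-0.08), IRS2 (-0.02) and ATP5F1B (0.00). With only the 2 groups fitted, LEAP2 (0.01). In replicates 1 to 3 alone, LEAP2 (0.15), IGF1R (-0.23), IRS1 (0.18), CPT1A (-0.24), PDK4 (0.12), BNIP3 (-0.19), ACTA2 (-0.24), CNN1 (-0.75) and TAGLN (-0.77). In replicates 7 to 9 alone, LEAP2 (0.12), IRS2 (-0.33), SCD (0.15), ANGPTL4 (0.94), RPTOR (0.01), FADS1 (0.01), NDUFS1 (0.01), ATP5F1B (0.05), EGFL7 (-0.32) and SOX9 (0.19). With scaling to hepatocyte genes, LEAP2 (0.45), INSR (0.04), IRS1 (0.36), SREBF1 (0.27), FASN (0.00), SCD (0.36), BCL6 (0.08), PDPK1 (0.03), PIK3CB (0.28), RPTOR (0.24), SLC2A2 (0.01), MID1IP1 (0.19), FADS1 (0.28), CYP51A1 (0.15), AUP1 (0.10), NDUFS1 (0.23), ATP5F1B (0.40) and SOX9 (0.19). With that scaling and without normal-medium replicates 4 to 6, LEAP2 (0.40), IRS1 (0.03), SREBF1 (0.14), SCD (0.31), PIK3CB (0.10), RPTOR (0.09), SLC2A2 (0.05), FADS1 (0.13), CYP51A1 (0.07), NDUFS1 (0.07), ATP5F1B (0.17) and SOX9 (0.19). Without normal-medium replicates 4 to 6, LEAP2 (0.17), IRS2 (-0.13), SCD (0.08) and EGFL7 (-0.03). Without these and untreated insulin-resistant replicates 1 to 3, LEAP2 (0.24), IRS2 (-0.19), SCD (0.11), EGFL7 (-0.07) and SOX9 (0.00). Without 1 library LEAP2 ranged over -0.24 to 0.01. Genes with few counts, such as G6PC1 and FGF21, are limited by depth.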
